A study of Mus musculus with 2 samples.

Results

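The 10 genes described here make or remove reactive oxygen, and they were taken by name from 22180 named genes on an expression array of mouse gut myofibroblasts. The producers are Xdh, Nox1, Nox4, Cyba and Cybb, and the removers are Sod1, Sod2, Sod3, Cat and Gpx1. Each was read by the probeset paired with that gene alone, and every one of the 10 had 1 such probeset. Myofibroblasts, the contractile stromal cells under the gut epithelium, came from the small bowel of BALB/c mice without a genetic change (wild-type) and were cultured for 1 day either without addition (non-stimulated) or with 5 mg/ml of homogenised gut eosinophils (stimulated). RNA of 3 cultures was pooled for each condition, so the series holds 2 arrays, without a replicate, an error or a test, and each difference describes these 2 pools. The ages of the mice were not given in the labels. Values are the deposited log2 values, and differences are stimulated minus non-stimulated.

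Superoxide is made when an enzyme passes a single electron to oxygen. NADPH oxidases do this across membranes as their main function, while xanthine oxidoreductase does it as a side reaction of purine breakdown. Superoxide dismutases turn superoxide into hydrogen peroxide, and catalase and glutathione peroxidases turn the peroxide into water. In the gut wall, epithelium, phagocytes and stroma carry different oxidases, and myofibroblasts are best known for the NADPH oxidase Nox4.

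Xdh and Sod2 stood furthest from equality between the arrays, both towards higher values with homogenate. Xdh measured 2.17-fold higher and Sod2 1.58-fold higher, and Sod3 followed at 1.29-fold. Among the members, the NADPH oxidase pair above background, Nox4 with its partner Cyba, read almost the same on both arrays. The remaining removers, Sod1, Cat and Gpx1, differed by 0.14 or less on the log2 scale. The transcripts of the epithelial oxidase Nox1 and of the phagocyte oxidase Cybb were under the background level on both arrays.

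The arrays were checked before these values were read. Odorant and pheromone receptor genes (1407 probesets) served as background, whose level was set at their 95th percentile, 5.58 for the non-stimulated and 5.57 for the stimulated array, and 14068 named genes passed it on at least 1 array. All 12 fibroblast and myofibroblast markers passed it, although 1 label field names eosinophils as the source of both samples. Of these 12, 5 read lower by at least 0.25 (41.7%, against 7.64% of all genes). They were the contractile genes Des (-0.62), Myh11 (-0.53), Tagln (-0.41) and Acta2 (-0.28) and the matrix gene Lum (-0.26). Pdgfra alone read higher by that much, at 0.56 (8.33%, against 6.69%). None of 7 eosinophil markers passed background. Siglecf was highest without homogenate (5.43) and Gata1 with it (5.32), and the granule genes Epx and Prg2 read 5.25 or less. Of 14 phagocyte markers 8 passed on at least 1 array, 6 without and 8 with homogenate. Of these 8, 6 read higher with homogenate and 2 lower, with a median of 0.20, and the 2 past 0.25, Lyz2 (5.15 and 5.66) and Itgb2 (5.40 and 5.66), were under background without it. Cx3cr1 differed by 0.23 and Cd68 by 0.21, and the brightest marker, Cd53, read 9.73 and 9.56. The summed value of all 14 on the linear scale, to which Cd53 gave most, was 1480 without and 1440 with homogenate. The pan-leukocyte gene Ptprc (4.16 and 3.95) and the macrophage gene Adgre1 (4.51 and 4.57) were under background. Of 8 epithelial markers 4 passed on both arrays. These were Krt8 (6.45 and 6.23), Cdh1 (6.05 and 5.86), Muc2 (5.99 and 6.12) and Krt18 (5.78 and 5.87). Epcam (4.35 and 4.49) was among those that did not. Of 6 endothelial markers 3 passed, with Egfl7 highest at 6.24 and 6.33. In bulk RNA, fewer cells of a type and less RNA per cell cannot be told apart. The part of these marker differences in the members' values was not tested.

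The bases before the start sites of both intracellular dismutase genes are shown because Sod2 differed between the arrays while Sod1 differed little. Upstream sequences of 8 members were found in the RefSeq table of build GRCm38.p6, and Xdh and Sod3 were not. The reference is C57BL/6J and not BALB/c. Capitals mark matches, on either strand, to a loose NF-kB pattern, GGG followed by any 5 bases and CC. The windows are the 250 bases before the start site, chr17:13007589-13007838 on the plus strand for Sod2 and chr16:90220512-90220761 on the plus strand for Sod1.
Sod2: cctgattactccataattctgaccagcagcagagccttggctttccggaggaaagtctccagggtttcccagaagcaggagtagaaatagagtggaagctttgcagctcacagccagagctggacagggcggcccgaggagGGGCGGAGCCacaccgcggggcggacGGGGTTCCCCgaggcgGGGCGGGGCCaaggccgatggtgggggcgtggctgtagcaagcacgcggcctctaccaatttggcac
Sod1: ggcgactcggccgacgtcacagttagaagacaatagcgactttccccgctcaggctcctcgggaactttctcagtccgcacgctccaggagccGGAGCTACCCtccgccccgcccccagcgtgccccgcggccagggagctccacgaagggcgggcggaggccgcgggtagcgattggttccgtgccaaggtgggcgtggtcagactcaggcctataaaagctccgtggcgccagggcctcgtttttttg

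The Sod2 window held the pattern at 3 positions and the Sod1 window at 1. The Cyba window held 4 and the Cat window 2, and these members differed by 0.00 and 0.14 between the arrays. Of the 4 in Cyba, those starting 39 and 38 bases before the start overlap. A link between positions and differences was not tested. In Sod2, GGGGTTCCCC lies 83 to 74 bases before the start and reads as a match on both strands. The remaining 2 Sod2 matches, and 1 of those in Cyba, each contain GGGCGG, the GC box that Sp1 family factors bind, so the patterns overlap there. All 8 members with an upstream window held at least 1 match, as did 45.8% of 32851 windows of that length in the table. The pattern of the antioxidant response element, TGA followed by any 5 bases and GC, was found for Sod1 and Cyba and in 37.2% of all windows. Its letters were not in the Sod2 window. These are descriptions of letters and not of bound sites.

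Xdh encodes xanthine oxidoreductase, which oxidises hypoxanthine to xanthine and xanthine to urate and, in its oxidase form, releases superoxide and peroxide. Its level was 7.58 without homogenate and 8.69 with it, both above background. The difference of 1.12 on the log2 scale, 2.17-fold, was the 24th largest towards higher values among the 14068 genes. It was the only member past 2-fold: 1 of 8 members above background was at least 2-fold higher, against 0.192% of all genes, and none was at least 2-fold lower, against 0.0426%. Genes were divided by mean expression into 4 sets of 3517, and in the set that holds Xdh the central 95% of differences lay between -0.29 and 0.32.

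The NADPH oxidase genes among the members showed either little difference or no transcript above background. Nox4, an oxidase that is active without the cytosolic activator subunits of its relatives and mainly releases hydrogen peroxide, read 9.17 without and 9.13 with homogenate. Its difference was -0.04, and 75.5% of all genes above background differed by at least as much. Cyba, the membrane subunit p22phox that Nox1, Nox4 and the phagocyte oxidase all need, read 9.14 on both arrays. Its difference was 0.00, with 97.2% of genes differing by at least as much.

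The other NADPH oxidases among the members gave no level that could be compared. Nox1, known from colon epithelium and smooth muscle, read 5.10 and 4.76, at -0.48 and -0.81 relative to the background level of each array. Cybb, the catalytic subunit of the phagocyte oxidase, read 4.44 and 4.53, at -1.14 and -1.04 relative to it. Both lie among values seen for receptor genes that the cells are not known to use, so no fold is given for either. The plot of the members' levels shows these 2 genes left of the background lines and the remaining 8 to the right.

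**Figure D1:**
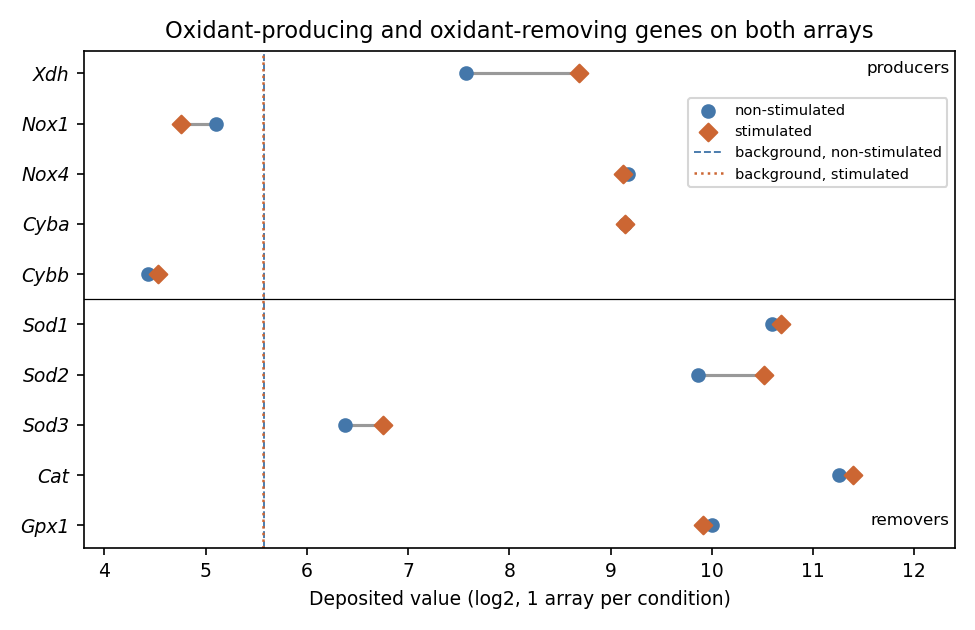
Deposited log2 values (horizontal axis) of the 10 members on the non-stimulated array (circles) and the stimulated array (diamonds), 1 array per condition, with the background level of each array as a vertical line. Xdh, Sod2 and Sod3 lie visibly further right with homogenate, Nox4 and Cyba overlap, and Nox1 and Cybb are under background.

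Among the dismutases, the mitochondrial and the secreted enzyme measured higher and the cytosolic one differed less. Sod2, the manganese enzyme of the mitochondrial matrix and a long-known target of NF-kB, read 9.86 without and 10.52 with homogenate. The difference of 0.66, 1.58-fold, ranked 79th towards higher values, and 0.974% of genes differed by at least as much in either direction. Its set of genes, the brightest, had central 95% limits of -0.25 and 0.29.

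Sod3, the copper and zinc enzyme that is secreted and held on the matrix, read 6.38 and 6.75, which is 0.80 and 1.18 above background. Its difference of 0.37, 1.29-fold, lay just past the upper limit of 0.36 for its set of dimmer genes, and 5.62% of all genes differed by at least as much. Sod1, the copper and zinc enzyme of the cytosol, read 10.59 and 10.69. Its difference of 0.10 lay inside the limits of the brightest set, and 51.3% of genes differed by at least as much.

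The peroxide removers differed by little and in opposite directions. Cat, the peroxisomal catalase, read 11.26 and 11.40, a difference of 0.14 that 35.2% of genes equalled or passed. Gpx1, the selenium-dependent glutathione peroxidase of cytosol and mitochondria, read 9.998 and 9.918, a difference of -0.08 that 57.8% of genes equalled or passed. Both lay inside the central 95% of the brightest set.

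Across the 8 members above background, 6 read higher with homogenate and 2 lower, where 50.2% and 48.2% of all genes did so. The 6 include Cyba, whose difference was 0.00. At 1.5-fold, 2 were higher, Xdh and Sod2, against 0.796% of all genes, and none was lower, against 0.64%. Past 0.25 on the log2 scale, 3 were higher, against 6.69%, and none was lower, against 7.64%. The median difference was 0.12 for the 8 members and 0.00 for all genes, and it was 0.00 for the 3 producers and 0.14 for the 5 removers. Without Xdh and Sod2, an alternative chosen after seeing the data, the median of the remaining members was 0.05.

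No second probeset was available for any member as a check within the array. For 469 other genes with exactly 2 probesets above background on both arrays, the difference read by one probeset departed from that of its partner by a median of 0.13, with a 95th percentile of 0.45 on the log2 scale. The differences of Xdh and Sod2 exceed that 95th percentile, and those of the other 6 members do not. This figure describes how far readings within these 2 arrays can disagree and does not stand for variation between cultures.

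**Figure D2:**
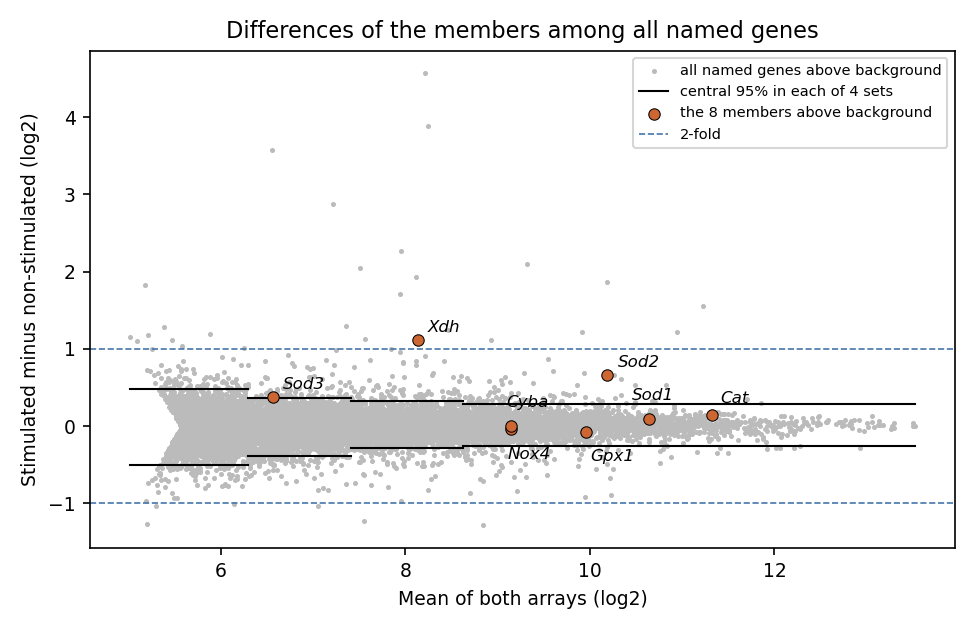
Difference between the arrays (stimulated minus non-stimulated, log2) against the mean of both arrays (log2) for the 14068 named genes above background (grey), with the 8 members in orange, black bars for the central 95% of differences in each of 4 sets by mean expression and dashed lines at 2-fold. Xdh lies above the 2-fold line, Sod2 above the bar of its set and Sod3 just above its own, while the remaining 5 lie inside.

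The genes around the members were read from 6 lists of partners, related enzymes and regulators. Of 115 listed genes, 104 had a probeset of their own and 88 were above background. Of these 88, 13 were higher by at least 0.25 (14.8%, against 6.69% of all genes) and 3 lower (3.41%, against 7.64%), and none passed 2-fold. At 1.5-fold, 3 of the 88 were higher, against 0.796% of all genes, and none was lower, against 0.64%. Their median was 0.05.

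Partners and relatives of the NADPH oxidases lay on both sides of equality, with differences from -0.30 to 0.27. Those above background numbered 12, of which 6 read higher and 6 lower (median 0.02), and none reached 1.5-fold. Ncf4 (p40phox, of the phagocyte oxidase) read 6.10 and 5.80, a difference of -0.30. Sh3pxd2b, which encodes the podosome scaffold Tks4, read 8.77 and 9.04, a difference of 0.27. Further down, Rac2 differed by -0.24 and Ncf1 by -0.19. Duox2, an epithelial oxidase, was under background with homogenate and at least 1.02-fold lower. Nox3, a further NADPH oxidase, read 5.79 and 5.93, close to the background level, a difference of 0.14. Cybc1, a chaperone needed for the phagocyte oxidase, differed by -0.02, and Rac1 and Poldip2, which interact with NADPH oxidases, by -0.09 and 0.11. The genes Duox1, Duoxa1 and Noxa1 were under background on both arrays. Several of these partners are markers of phagocytes as well, and the part of such cells in these values was not tested.

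In the list of purine breakdown and other oxidases, the gene with the largest difference feeds the Xdh reaction. Gda, the guanine deaminase that turns guanine into xanthine, read 6.75 without and 7.74 with homogenate. Its difference was 0.99, or 1.98-fold, 36th in size among all genes. Ada and Pnp, which convert adenosine and inosine on the way to hypoxanthine, differed by 0.07 and -0.14. Both lay near the background level, Ada at 6.02 and 6.09 and Pnp at 5.88 and 5.74, which limits what their small differences show. Hprt, which salvages hypoxanthine and guanine, differed by 0.08. Uox, the urate oxidase of liver, was under background at 4.32 and 4.17. Thus Xdh, a member, and Gda, from the list, differed by close to 2-fold or more, while Ada, Pnp and Hprt differed by 0.14 or less in size.

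Xdh also needs the molybdenum cofactor, and the genes that build it read slightly higher. Mocs1, which acts in the first step, read 8.52 and 8.85, a difference of 0.33 against an upper limit of 0.29. Mocos, which adds the sulphur that Xdh needs for activity, differed by 0.19, Mocs2 by 0.11 and Gphn by 0.04. Of the other users of the cofactor in the list, Suox (sulphite oxidase) differed by -0.30 and Aox1 (aldehyde oxidase) by -0.13. The further aldehyde oxidase genes Aox2, Aox3 and Aox4 were under background on both arrays. Over the whole list of 19 genes above background, 9 read higher and 10 lower, and the median was -0.01. The monoamine oxidases Maoa and Maob, which make peroxide in mitochondria, differed by -0.14 and -0.08. The matrix crosslinking oxidases Lox and Loxl1, which also release peroxide, differed by -0.04 and -0.10.

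**Figure D3:**
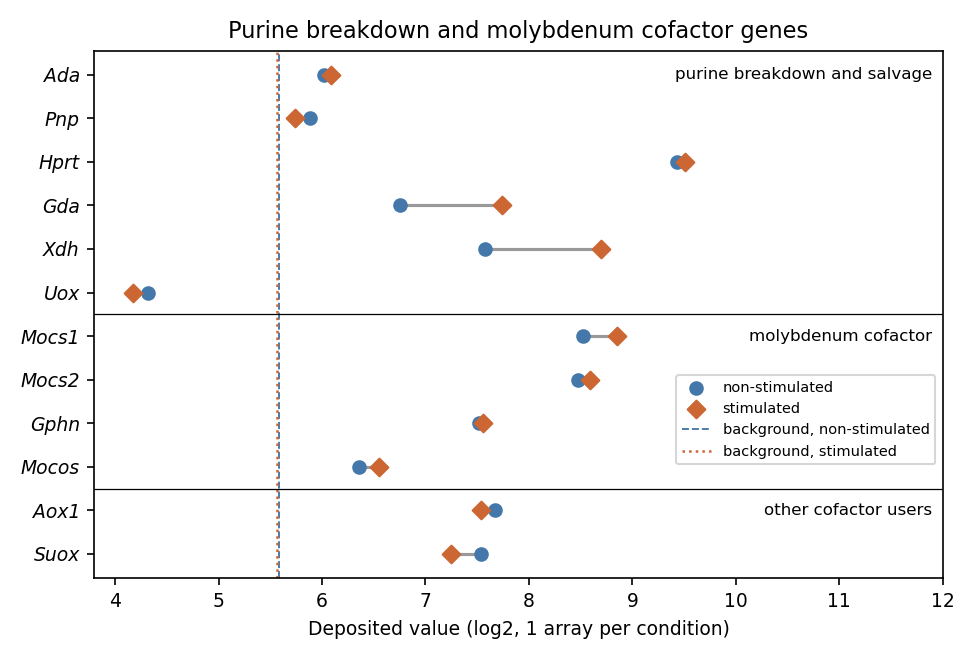
Deposited log2 values (horizontal axis) of genes of purine breakdown and salvage, of molybdenum cofactor synthesis and of other cofactor users on the non-stimulated (circles) and stimulated (diamonds) array, 1 array per condition, with vertical lines at the background levels. Gda and Xdh show the widest gaps between the arrays. Mocs1 shows a smaller one towards higher values and Suox a smaller one towards lower values, and Uox lies under background.

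A mixed list held copper, zinc, iron and manganese transport genes, with Pex5 and a few others. Of its 10 genes, 8 read higher with homogenate and 2 lower, where 50.2% and 48.2% of all genes did so. The median of the list was 0.15. Past 0.25 were 3 of the 10, all higher and all metal carriers, against 6.69% of all genes. The copper importer Slc31a1 differed by 0.02, and Akr1a1 and Mtch2, which neither carry metals nor serve catalase, by 0.00 and 0.13. Slc39a14, an importer of zinc, iron and manganese, differed by 0.39, its relative Slc39a8 by 0.26, and Slc25a37 (mitoferrin-1, the mitochondrial iron importer) by 0.36, while Slc25a28 (mitoferrin-2), which is not in the list, differed by -0.09. Ccs, the copper chaperone of Sod1, differed by 0.05, and Atox1, the copper chaperone that serves the secretory pathway, by -0.05. Pex5, the receptor that brings catalase into peroxisomes, and Atp7a, a copper exporter that loads secreted copper enzymes, each differed by 0.18. Slc39a14, Slc39a8 and Slc25a37 read 8.51 and 8.90, 6.64 and 6.90, and 9.31 and 9.67 without and with homogenate.

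The relatives of Gpx1 differed by little, as it did, and the genes of glutathione synthesis read higher. Gpx4, which reduces lipid peroxides, read 7.87 on both arrays, and Gpx7 and Gpx8 of the endoplasmic reticulum each differed by 0.01. The secreted Gpx3 differed by -0.08. Gclc and Gclm, the subunits of the rate-limiting enzyme of glutathione synthesis, differed by 0.31 and 0.30, Gss, which completes glutathione, by 0.16, and both glutathione reductase, Gsr, and Sephs2, which makes selenium ready for selenoproteins, by 0.15. Gpx2, Gpx5 and Gpx6 were under background. Of 11 genes above it, 8 read higher and 3 lower, where 50.2% and 48.2% of all genes did so. The median of these 11 was 0.01.

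Peroxiredoxins and thioredoxins, the second route of peroxide removal, made a list of 16 genes, of which 13 had a probeset of their own. Prdx1, Prdx5 and Prdx6 had none and were not read. All 13 were above background, and 9 read higher and 4 lower, where 50.2% and 48.2% of all genes did so. Their median was 0.12 and none passed 1.5-fold. Sesn1, a stress-induced regulator, was the only one past 0.25, at 7.37 and 7.08, a difference of -0.29. Prdx2 of the cytosol differed by 0.20, Txnrd3 by 0.19 and the cytosolic thioredoxin reductase Txnrd1 by 0.17. Prdx3, the mitochondrial peroxiredoxin that shares its compartment with Sod2, differed by 0.07, and its reductant Txn2 by 0.02. Prdx4 differed by -0.07.

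In the list of regulators of the members, mostly transcription factors and their inhibitors, Nfkbia and Cebpd held the largest differences. Nfkbia, the NF-kB inhibitor that is itself an NF-kB target, read 7.70 and 8.54, and its difference was 0.85. Cebpd read 6.83 and 7.63, a difference of 0.79, and Cebpb 8.29 and 8.77, a difference of 0.48. Hif1a, the oxygen-sensing factor, differed by 0.53 and the NF-kB subunit Relb by 0.31, while Rela differed by 0.08 and Nfkb2 by 0.07. Nfe2l2 (NRF2), the main activator of antioxidant genes, differed by 0.18, its inhibitor Keap1 by -0.02 and the repressor Bach1 by -0.04. Foxo3, which is known to drive Sod2 and Cat, differed by 0.11, and Tgfb1, a known inducer of Nox4, by -0.10. Over 23 genes above background, 15 read higher and 8 lower, where 50.2% and 48.2% of all genes did so. The median of these 23 was 0.05.

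**Figure D4:**
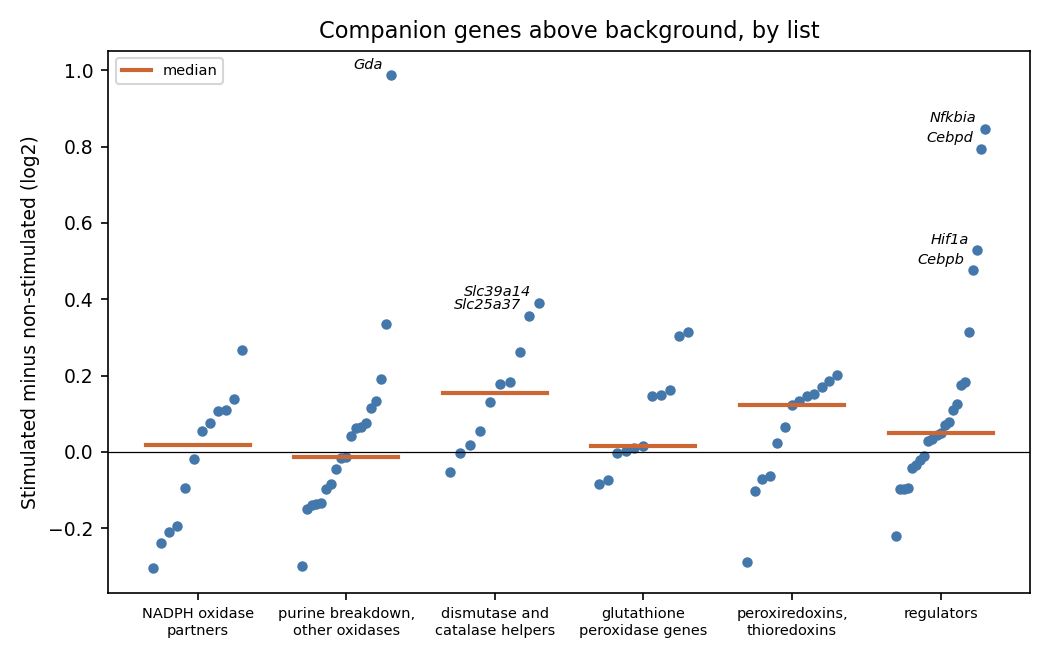
Difference between the arrays (stimulated minus non-stimulated, log2) for the genes above background in each of 6 lists, 1 point per gene sorted by value, with the list's median as an orange line and the gene name beside the points furthest from 0. Gda stands alone in the purine and oxidase list, Nfkbia and Cebpd lead the regulators, and the medians lie between -0.01 and 0.15.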

How the data were processed

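The assay was the GeneChip Mouse Gene 2.0 ST array, on RNA of 2 pools of 3 cultures each. The authors' deposited values are log2 values per probeset, made with Affymetrix Expression Console and RMA per the submitters' processing notes; the sources used here give no version and no genome build. RMA sets the arrays to one distribution, so differences are relative to all other probesets.

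Of 41345 probesets, 23521 were paired with 1 gene by the platform annotation, and symbols were updated through the RefSeq table for 23328. For genes with several probesets the one with the highest mean was used. A gene was above background when it passed the 95th percentile of receptor probesets on at least 1 array. Folds are 2 to the power of the difference. With 1 array per condition no test was made, and the number of arrays limits the precision. Calculations used Python 3.11.15, pandas 2.3.3 and numpy 2.4.6, tested on simulated data. Upstream windows came from the RefSeq promoter table, and protein sequences were not used here.

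The members and lists were chosen with earlier results of these data known. Named were all 10 members and, from each of the 6 lists in the report, the genes that differed by at least 0.25 or, where fewer than 4 did, the 4 furthest from 0. Other genes, and all those of the closing section's lists and the markers, were named after their values were seen. Of the listed genes, 11 had no probeset of their own and were not analysed here. Alternatives were the background filter, the probeset rule, centring, values raised to background, the threshold and the summary.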

Additional observations from a re-analysis of the deposited data

How the results depend on the processing

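A value was said to move when it shifted by over 0.1 on the log2 scale, and a count when it changed by over 1.5 times, since no replicate gives a spread. By these limits 14 alternative values moved. The 8 members above background have 1 probeset each and passed background on both arrays, so averaging probesets or raising values to background cannot alter their differences and says nothing about them. Under 3 other centrings, Xdh ran near 1.11, Sod2 from 0.64 to 0.65 and Sod3 from 0.37 to 0.39. Cyba lay between -0.02 and 0.00 and so has no direction. Of these centrings, that on the median of each set by mean expression was chosen after seeing the data. With a smooth trend over mean expression taken off, 5 members were higher and 3 lower, in place of 6 and 2. Members past the threshold on the higher side numbered 2 at 1.5-fold and 0 at 3-fold, in place of 1. Their mean was 0.28, against a median of 0.12. For all named genes, 27 higher and 6 lower at 2-fold became 43 and 29 with no background filter, 112 and 90 at 1.5-fold and 11 and 0 at 3-fold. The 6 became 3 with background at the 99th percentile, which also left 2 lower NADPH oxidase partners in place of 6, as fewer genes are compared. With no filter, 6 genes of the glutathione peroxidase list were lower in place of 3, the additions being Gpx2, Gpx5 and Gpx6. At 1.5-fold, 1 gene of the purine and oxidase list and 2 regulators passed, in place of none at 2-fold. Leaving out genes under background on 1 array, an alternative chosen after seeing the data, left 18 higher and 4 lower. No paired analysis was possible because each condition has 1 array. Among the 8 members above background, signal near background limits Sod3 most. Nox1 and Cybb, under background, have no measured difference, and pooling leaves variation between cultures unknown for all members.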

Other observations

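Genes that supply purines to Xdh and Gda, or carry urate, were read from a further list made after the members' values were seen. Of 21 above background, 10 read higher and 11 lower, the median was -0.02, and none reached 1.5-fold. Ampd3, an AMP deaminase that leads to IMP, read 7.53 and 7.83, a difference of 0.30. Nt5c2, the cytosolic nucleotidase that releases inosine and guanosine from their monophosphates, read 8.11 and 8.35. The urate exporter gene Abcg2 read 8.12 and 7.98, a difference of -0.14. The distance seen for Xdh and Gda was thus not met in this list.

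The organelles in which Cat and Sod2 act were read in the same way, from lists made after the values were seen. Of 26 peroxisomal genes above background, 14 read higher and 12 lower, and the median was 0.05. Abcd2, a peroxisomal carrier of very long fatty acids, passed background only with homogenate, at least 1.53-fold higher, and Pex11a, which promotes peroxisome division, differed by 0.30. Pex16, needed for peroxisome membranes, differed by -0.28. Of 19 mitochondrial genes of protein import, quality control and redox balance, 9 read higher and 10 lower, and the median was -0.01. The deacetylase gene Sirt3, whose product activates Sod2, read 6.44 and 6.24, a difference of -0.20. Lonp1, a matrix protease, differed by 0.12, the import receptor Tomm20 by -0.11 and the glutaredoxin Glrx2 by 0.09. The largest difference in size among these 19 was that of Sirt3, against 0.66 for Sod2.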
